A study of Mus musculus with 15 samples.

Results

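The BCL2 family genes described here were *Bcl2*, *Bcl2l1*, *Mcl1*, *Bax*, *Bak1*, *Bcl2l11*, *Bbc3*, *Pmaip1*, *Bid* and *Bad*. They were chosen by gene symbol and are 10 of the 24089 symbols in the count tables. Their RNA was measured in sorted group 2 innate lymphoid cells (ILC2s) of the intestinal lamina propria (LP) and in ILC2 precursors (ILC2p) of the bone marrow (BM), with and without *Tgfbr2*, which encodes the type II receptor for TGF-β. The 15 libraries were 4 WT and 3 Tgfbr2-/- from LP ILC2s and 4 WT and 4 Tgfbr2-/- from BM ILC2p, in 2 experiments for each cell type.

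The labels give C57BL/6 as the strain of all samples. The LP groups came from Tgfbr2f/f ER-Cre+ mice aged 8 to 12 weeks that received tamoxifen at 1 mg a day for 5 days (Tgfbr2-/-) or oil (WT), so both carried the floxed receptor alleles and the Cre, and tamoxifen itself was given to the Tgfbr2-/- group alone. The ER-Cre acts in every tissue that expresses it, not in ILC2s alone. BM ILC2p were the CD45.2+ cells of mixed chimeras. Their donors had the same floxed ER-Cre+ genotype and age and were given tamoxifen (Tgfbr2-/-) or oil (WT) for 5 days before transfer, so the tamoxifen went to the Tgfbr2-/- donors alone here too. Donor marrow was put with an equal amount of normal CD45.1+ marrow into irradiated CD45.1+ hosts and left for 6 weeks. The sources used here do not say whether replicates were separate mice, so p-values measure the spread between these libraries, which may be technical.

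BCL2 family proteins decide at the mitochondrial outer membrane whether a cell survives. The pro-survival proteins (BCL2, BCL-XL from *Bcl2l1*, and MCL1) hold the effectors BAX and BAK1 in check. The BH3-only proteins (BIM from *Bcl2l11*, PUMA from *Bbc3*, NOXA from *Pmaip1*, BID and BAD) carry a short helix, the BH3 motif, that fits a groove on the pro-survival proteins and sets the effectors free. Freed BAX and BAK1 form pores, cytochrome c leaves the mitochondrion, and caspases are switched on. In lymphoid cells, IL-7 and related cytokines are known to keep *Bcl2* and *Mcl1* expressed.

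The BH3 motif is what lets these proteins bind each other, so its coding sequence is shown for the 5 genes that the results below turn on most. Each line gives 30 coding bases from GENCODE M1 (build NCBIM37, the same assembly as mm9), 5′ to 3′ on the gene's strand, with the 18 bases of the motif's core in capitals: 6 codons, the first for leucine and the last for aspartate.
Bcl2: ctgaccCTCCGCCGGGCTGGGGATgacttc
Bcl2l1: caagcgCTGAGAGAGGCAGGCGATgagttt
Mcl1: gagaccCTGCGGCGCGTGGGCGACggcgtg
Bax: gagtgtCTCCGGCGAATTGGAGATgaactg
Bcl2l11: caggagCTGCGGCGGATCGGAGACgagttc
The cores lie in coding exons: exon 1 of 2 of *Bcl2* (chr1:108609161-108609178, minus strand), exon 2 of 3 of *Bcl2l1* (chr2:152655442-152655459, minus), exon 2 of 4 of *Mcl1* (chr3:95463359-95463376, plus), exon 3 of 6 of *Bax* (chr7:52721376-52721393, minus) and exon 3 of 4 of *Bcl2l11* (chr2:127972886-127972903, plus). The cores of *Bcl2* and *Bax*, whose products act in opposite directions, were identical at 13 of 18 bases, and those of *Bcl2l11* and *Bax* at 14 of 18. The pattern searched (leucine, any 3 residues, then glycine, alanine or serine, then aspartate) was found in the coding sequences of all 10 genes, and also in 32.9% of the 21613 genes searched, so a match alone describes the sequence and does not mark a BH3 motif.

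Total counts on genes ran from 12167066 to 32114265 in LP ILC2s and from 10957021 to 35961215 in BM ILC2p. Expression levels are in CPM (reads of a gene scaled to library size, with TMM factors over the 15 libraries) and in the deposited RPKM where genes are compared with each other. The label check gave a mixed picture. *Tgfbr2* stood at 172, 262, 149.7 and 207 CPM in the WT LP libraries and at 206, 184 and 96.6 CPM in the Tgfbr2-/- LP libraries, so the groups overlapped, and in BM ILC2p it ranged from 0.714 to 233 CPM (WT) and from 30.9 to 219 CPM (Tgfbr2-/-). Its log2 fold change was -0.46 (SE 0.24, adjusted p = 0.898, edgeR's quasi-likelihood test) in LP ILC2s and -0.21 (SE 1.21, adjusted p = 0.989, same test) in BM ILC2p. Counts summed over the whole transcript do not separate a floxed exon from the rest, so these values check nothing about the deletion, and the groups are called by their labels. Of 11 ILC2 markers, *Gata3*, the factor that defines ILC2s, was the highest in all 15 libraries. A rank within this list does not measure the purity of a sort. All 11 were detected in the LP libraries and in experiment 2 of BM ILC2p, and 1 to 3 of them were at 0 in each BM library of experiment 1.

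Several BM libraries stood apart before any comparison of genotypes. For each library, genes were taken whose median over the other libraries of its cell type was at least 50 CPM. Of these, 14.2% were under 1 CPM in WT replicate 1 of experiment 1 of BM ILC2p. The share was 12.1% and 13.8% in the Tgfbr2-/- replicates of experiment 1, and 8.33% in Tgfbr2-/- replicate 2 of experiment 2. The other 4 BM libraries had 1.56% to 3.66%, and no LP library had more than 0.0285%. The 4 BM libraries with the largest losses had 3, 3, 5 and 3 of the 10 family genes under 1 CPM. Results on the family genes in BM ILC2p are therefore given with and without them where they matter. Other named genes are given with all BM libraries only.

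Markers of other marrow cells were high in the Tgfbr2-/- BM libraries. The 9 neutrophil markers found in the files summed to 93431, 78495, 77026 and 89904 CPM there, against 792, 1560.1, 940.3 and 1473 CPM in WT BM libraries and at most 3.88 CPM in LP libraries, where 6 to 8 of the 9 were at 0. The most abundant was *S100a8* in Tgfbr2-/- and *Mpo* in WT libraries. In the Tgfbr2-/- against WT comparison 8 of the 9 were called higher, although the sort for lineage-negative cells used antibodies to Gr-1 and CD11b. The 6 macrophage and monocyte markers, led by *Lyz2*, summed to 11300.4 to 12964 CPM in Tgfbr2-/- and 42.3 to 79.9 CPM in WT BM libraries, and the 5 basophil and mast cell markers, led in Tgfbr2-/- libraries by *Prss34*, to 1211 to 1585 and 111 to 298 CPM. The 11 ILC2 markers ran the other way, at 2474 to 3556 CPM in Tgfbr2-/- against 5866 to 8702 CPM in WT. Of the 10 that could be tested, 2 were called lower in Tgfbr2-/-, *Il1rl1* (the IL-33 receptor ST2) and *Gata3*. Markers of NK cells and ILC1s summed to 48.9 to 178 CPM in Tgfbr2-/- and 0.446 to 30.5 CPM in WT BM libraries, with *Gzma* called higher. The part of these markers' cells in the results on BM ILC2p below was not tested.

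Per length, *Bax* was the most abundant of the 10 genes in LP ILC2s, at 222 ± 19.9 RPKM (SD, n = 7), and it led in all 7 libraries. *Bcl2* at 134 ± 26.5 and *Bcl2l1* at 122 ± 29.0 RPKM followed and did not differ beyond their spread. *Bad* was next at 47.9 ± 14.7 RPKM and was the highest BH3-only gene in each LP library. *Mcl1* at 18.4 ± 5.08 and *Bcl2l11* at 17.6 ± 4.82 RPKM lay within each other's spread. The remaining genes were at 10.6 ± 10.4 (*Bbc3*), 7.46 ± 6.15 (*Bid*), 7.43 ± 3.65 (*Bak1*) and 7.13 ± 3.07 RPKM (*Pmaip1*), and these neighbours did not differ beyond their spread. *Bax* made up 95.0% to 99.1% of the summed RPKM of the effectors in LP ILC2s. *Bcl2* has 2 annotated transcripts, and the length behind its RPKM moved from library to library, between 3473 and 4300 bases in LP and between 2313 and 7472 bases in BM libraries. With 7472 bases used throughout, a choice made after the values were seen, *Bcl2* fell below *Bcl2l1* in 6 of the 7 LP libraries.

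The order was looser in BM ILC2p. *Bax* stood at 137 ± 60.6 RPKM (SD, n = 8), *Bcl2* at 106 ± 90.5, *Bid* at 67.9 ± 58.3, *Bcl2l1* at 57.9 ± 39.8 and *Mcl1* at 52.2 ± 25.5 RPKM. Then came *Bad* at 38.9 ± 27.6, *Bbc3* at 14.99 ± 18.1, *Bak1* at 10.01 ± 6.72, *Bcl2l11* at 4.89 ± 6.38 and *Pmaip1* at 2.47 ± 5.82 RPKM. Each of these overlapped its neighbour within 1 SD. The place of *Bcl2* again depends on its length. With 7472 bases throughout, *Bcl2* was at 43.6 ± 28.5 CPM per kilobase (SD, n = 8), below *Bid*, which links death receptors to the mitochondrion, at 64.8 ± 57.7, *Mcl1* at 51.3 ± 26.0 and *Bcl2l1* at 49.8 ± 29.9 CPM per kilobase, all within 1 SD of each other. Across the 7 LP libraries the coefficient of variation of *Bax* in CPM was 8.95%, against a median of 36.4% over 8297 genes. The median gene of BM ILC2p varied by 93.5% (8844 genes).

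**Figure D1:**
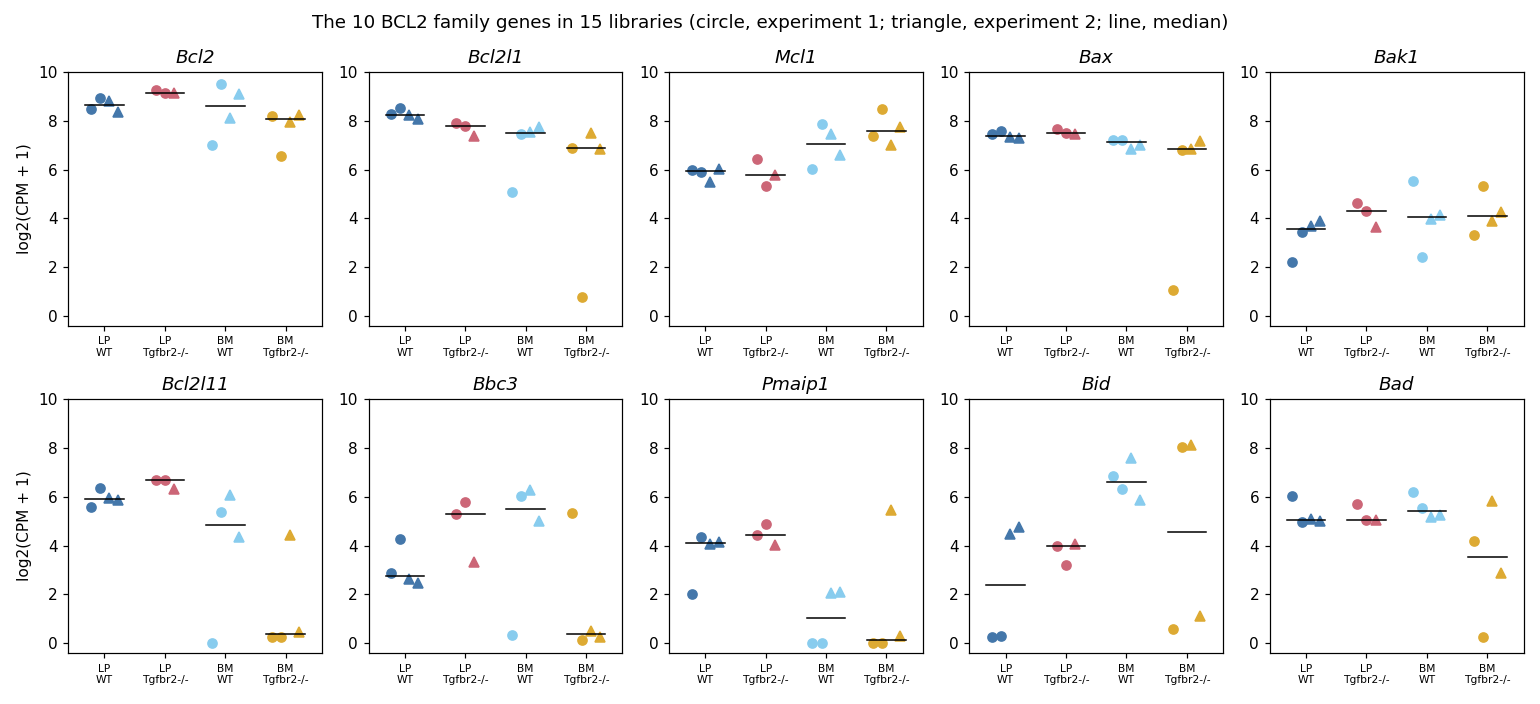
Level of each of the 10 genes in the 15 libraries, as log2(CPM + 1). Each point is a library (circles, experiment 1; triangles, experiment 2), and the line is the median of its group. *Bax* is tight in LP ILC2s, between 155 and 199 CPM, while several genes drop to the axis in single BM ILC2p libraries.

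The first comparison asked how loss of *Tgfbr2* changed the family in LP ILC2s. None of the 10 genes was called at an adjusted p under 0.1 and a fold change over 1.5, and none of the 11981 genes tested was called either (0%; 557 had an unadjusted p under 0.05; DESeq2 called 2.82% of the genes and limma 0). Of the 10 genes 8 had a positive log2 fold change. Their median was 0.52, beside -0.01 over all genes tested. The lowest unadjusted p-values were those of the pro-survival pair *Bcl2l1* and *Bcl2*, whose fold changes had opposite signs.

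*Bcl2* stood at 358, 483, 445 and 322 CPM in WT LP libraries, and at 612, 559.6 and 567 CPM in the Tgfbr2-/- libraries. Every Tgfbr2-/- library was above every WT library. The log2 fold change was 0.49 (SE 0.17; unadjusted p = 0.0226, adjusted p = 0.898, edgeR's quasi-likelihood test). *Bcl2l1*, which encodes BCL-XL, was at 305, 366, 298 and 265 CPM (WT) and at 240.4, 218 and 164 CPM (Tgfbr2-/-). Here every Tgfbr2-/- library was below every WT library, with a log2 fold change of -0.67 (SE 0.16; unadjusted p = 0.00263, adjusted p = 0.877, same test). DESeq2 gave *Bcl2l1* an adjusted p of 0.0196 and called it, and over 16 alternatives its log2 fold change stayed between -0.75 and -0.57, with adjusted p between 0.0196 and 1. *Bcl2* lay between 0.42 and 0.61 over its alternatives, with adjusted p between 0.188 and 1. Groups did not overlap in the higher direction for 3.04% of all genes tested, and in the lower direction for 2.35%. In bulk RNA, fewer cells of a type and less RNA per cell cannot be told apart.

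Within each library the 2 genes can be set against each other without any scaling between libraries. The ratio of *Bcl2* to *Bcl2l1* counts was 1.17, 1.32, 1.49 and 1.22 in WT and 2.55, 2.57 and 3.46 in Tgfbr2-/- LP libraries. The lowest Tgfbr2-/- value was above the highest WT value. In BM libraries the ratio was 3.87, 4.14, 1.46 and 2.58 (WT) and 2.44, 129, 1.36 and 2.64 (Tgfbr2-/-), and the groups overlapped. The ratio was formed after the values of both genes had been seen, so it is a description and carries no test. Of the summed RPKM of the 3 pro-survival genes, *Bcl2* took 40.8% to 44.9% in WT and 55.0% to 60.7% in Tgfbr2-/- libraries, *Bcl2l1* took 49.4% to 53.5% and 32.3% to 36.4%, and *Mcl1* took 4.73% to 8.71% over all 7. By these values *Bcl2l1* led the 3 in all 4 WT libraries and *Bcl2* in all 3 Tgfbr2-/- libraries, but the order depends on the length taken for *Bcl2*. With 7472 bases throughout, the share of *Bcl2* was 26.0% to 31.6% in WT and 40.9%, 43.8% and 49.0% in Tgfbr2-/- libraries, and that of *Bcl2l1* was 61.6% to 64.4% in WT and 46.8%, 49.6% and 41.1% in Tgfbr2-/- libraries. *Bcl2* then led in 1 of the 3 Tgfbr2-/- libraries, and its share was still higher in each of them than in any WT library.

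**Figure D2:**
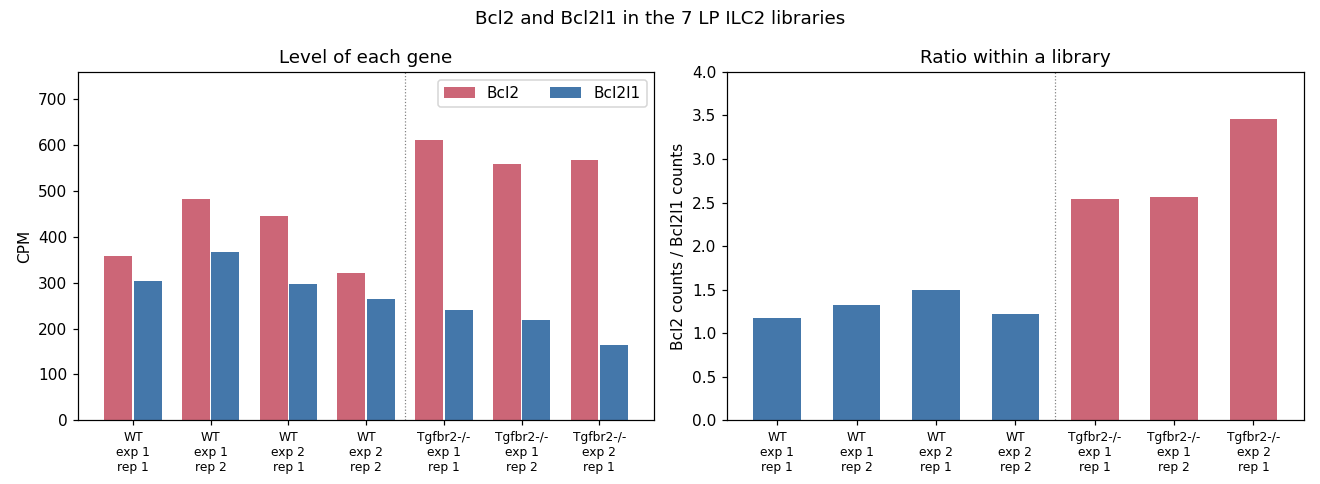
Left, level of *Bcl2* and *Bcl2l1* in CPM in each of the 7 LP ILC2 libraries; right, the ratio of their counts within each library. Every bar is 1 library with no error bar, and the ratio is 1.17 to 1.49 in WT and 2.55 to 3.46 in Tgfbr2-/- libraries.

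*Mcl1*, the short-lived pro-survival protein, was at 61.9, 58.0, 44.5 and 63.7 CPM (WT) and 85.9, 39.6 and 53.4 CPM (Tgfbr2-/-). The Tgfbr2-/- values lay on both sides of the WT values (log2 fold change 0.00, SE 0.33, adjusted p = 0.998, edgeR's quasi-likelihood test). The effector *Bax* was at 173, 189.9, 160.0 and 155 CPM (WT) and 199, 179 and 173 CPM (Tgfbr2-/-), again with overlap (0.06, SE 0.16, adjusted p = 0.980, same test). The other effector, *Bak1*, was low, between 3.70 and 24.0 CPM, with a log2 fold change of 0.96 (SE 0.75, adjusted p = 0.898, same test).

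Among the BH3-only genes, *Bcl2l11* stood at 46.9, 81.4, 60.3 and 57.5 CPM (WT) and at 101, 103 and 78.4 CPM (Tgfbr2-/-). Within each experiment the Tgfbr2-/- values were higher, although experiment 2 held a single Tgfbr2-/- library. Over both, the highest WT library overlapped the lowest Tgfbr2-/- library (log2 fold change 0.55, SE 0.25, adjusted p = 0.898, edgeR's quasi-likelihood test). *Bbc3*, a p53 target, was at 6.46, 18.5, 5.12 and 4.54 CPM (WT) and at 37.7, 54.5 and 8.95 CPM (Tgfbr2-/-), with a log2 fold change of 1.49 (SE 0.58, adjusted p = 0.898, same test). Tgfbr2-/- was above WT within both experiments, in experiment 2 by that single library. Not overlapping within each of the 2 experiments held in the higher direction for *Bcl2*, *Bcl2l11* and *Bbc3* and in the lower direction for *Bcl2l1*. Over all genes tested, these shares were 7.11% higher and 5.58% lower.

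*Bid* had the widest fitted value, 3.996 on the log2 scale (SE 1.76, adjusted p = 0.898, edgeR's quasi-likelihood test), and DESeq2 called it (4.05, adjusted p = 0.0176). Its values were 0.187 and 0.240 CPM in WT against 14.7 and 8.35 CPM in Tgfbr2-/- libraries of experiment 1, and 21.4 and 25.8 against 15.6 CPM in experiment 2. The experiments therefore lay on opposite sides, with 5.71 in experiment 1 alone and -0.57 in experiment 2 alone. *Pmaip1* ranged from 3.09 to 19.4 CPM (WT) and from 15.3 to 28.8 CPM (Tgfbr2-/-), with a log2 fold change of 0.66 (SE 0.74, adjusted p = 0.926, same test). *Bad* was at 63.9, 30.3, 33.3 and 30.9 CPM (WT) and 51.7, 31.96 and 32.3 CPM (Tgfbr2-/-), with a log2 fold change of -0.13 (SE 0.38, adjusted p = 0.980, same test). Markers of NK cells and ILC1s, led by *Gzma*, summed to 326, 188, 185 and 207 CPM (WT) and 243, 499 and 863 CPM (Tgfbr2-/-). Epithelial markers, led by *Epcam* or *Krt8* in each library, summed to 6.50, 15.5, 74.7 and 318 CPM (WT) and 39.5, 25.2 and 811 CPM (Tgfbr2-/-), with a median log2 fold change of 3.44 and 4 of 5 positive. Macrophage and monocyte markers summed to 0.140, 3.66, 6.42 and 254 CPM (WT) and 10.4, 24.3 and 21.4 CPM (Tgfbr2-/-), with a median of 2.52 and 5 of 5 positive. For the NK cell and ILC1 markers the median was 1.48, with 5 of 5 positive. For the 11 ILC2 markers it was -0.27, with 9 of 11 negative. None of these markers was called, and their part in the values above was not tested.

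The same question in BM ILC2p met a far larger spread. None of the 9 family genes that could be tested was called, against 321 of 9242 genes (3.47%; 2.61% higher and 0.866% lower in Tgfbr2-/-), and *Pmaip1* was too low to test. Of the 9 genes 7 had a negative log2 fold change, with a median of -0.67 beside -0.10 over all genes tested. The counts were the same, 0 family genes called, without the 4 libraries named above, where 25 genes in all were called. In those 4 remaining libraries, 1 of them Tgfbr2-/- and assumed to vary like the WT libraries, the log2 fold changes were -0.81 for *Bcl2*, -0.21 for *Bcl2l1*, -0.16 for *Bax*, -1.10 for *Bcl2l11*, -7.04 for *Bbc3* and 1.09 for *Bid*, with adjusted p of 0.247 or more (edgeR's quasi-likelihood test). *Mcl1* (-0.16) and *Bad* (0.57) then had the sign opposite to that over all 8 libraries.

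*Bcl2* was at 127, 729.6, 272 and 548 CPM (WT) and 289, 93.6, 247 and 302 CPM (Tgfbr2-/-). The groups overlapped (log2 fold change -0.91, SE 0.59, adjusted p = 0.790, edgeR's quasi-likelihood test). *Bcl2l1* was at 32.8, 176, 187 and 213 CPM (WT) and 118, 0.726, 182 and 114 CPM (Tgfbr2-/-), with a log2 fold change of -0.66 (SE 1.11, adjusted p = 0.940, same test). Its low value came in Tgfbr2-/- replicate 2 of experiment 1, where *Mcl1* took 88.8% of the pro-survival RPKM. *Mcl1* was at 63.7, 231, 176 and 96.5 CPM (WT) and 165, 354, 129 and 215 CPM (Tgfbr2-/-), with a log2 fold change of 0.55 (SE 0.56, adjusted p = 0.905, same test). Leaving out each library in turn gave -1.21 to -0.21 for *Bcl2* and -1.98 to -0.02 for *Bcl2l1*. In both genes the lowest value came without Tgfbr2-/- replicate 1 and the highest without WT replicate 2 of experiment 1.

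*Bax* held between 112 and 148 CPM in 7 of the 8 BM libraries and was at 1.09 CPM in Tgfbr2-/- replicate 1 of experiment 1. Its log2 fold change was -0.67 (SE 1.06, adjusted p = 0.936, edgeR's quasi-likelihood test). *Bak1* ranged from 4.30 to 44.6 CPM (WT) and from 8.94 to 39.3 CPM (Tgfbr2-/-), with a log2 fold change of -0.01 (SE 1.33, adjusted p = 0.999, same test). Thus both effectors overlapped between the genotypes.

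The BH3-only genes of BM ILC2p were high in some libraries and near 0 in others. *Bcl2l11* was at 0, 40.1, 65.5 and 19.6 CPM (WT) and at 0.199, 0.207, 20.9 and 0.387 CPM (Tgfbr2-/-), with a log2 fold change of -4.23 (SE 2.68, adjusted p = 0.783, edgeR's quasi-likelihood test). *Bbc3* was at 0.268, 64.5, 76.4 and 30.7 CPM (WT) and 39.2, 0.104, 0.426 and 0.194 CPM (Tgfbr2-/-), with a log2 fold change of -4.06 (SE 3.28, adjusted p = 0.880, same test). The groups overlapped for both genes. Single libraries moved both values: leaving out each in turn gave -6.67 (without Tgfbr2-/- replicate 1 of experiment 2) to -0.76 (without WT replicate 2 of experiment 1) for *Bcl2l11*, and -7.71 (without Tgfbr2-/- replicate 1 of experiment 1) to -2.19 (without Tgfbr2-/- replicate 2 of experiment 2) for *Bbc3*.

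*Bid* was at 115, 78.8, 191 and 56.7 CPM (WT) and 0.496, 259, 278 and 1.16 CPM (Tgfbr2-/-), so the Tgfbr2-/- libraries lay at both ends (log2 fold change 0.29, SE 1.55, adjusted p = 0.989, edgeR's quasi-likelihood test). *Bad* ranged from 34.5 to 72.5 CPM (WT) and from 0.207 to 55.9 CPM (Tgfbr2-/-), with a log2 fold change of -1.52 (SE 1.62, adjusted p = 0.909, same test). *Pmaip1* had no count in any of the 4 libraries of experiment 1, which at 3 counts allows up to 0.174 to 0.311 CPM (counting error only), and was at 3.11 and 3.35 CPM (WT) and 42.8 and 0.232 CPM (Tgfbr2-/-) in experiment 2.

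**Figure D3:**
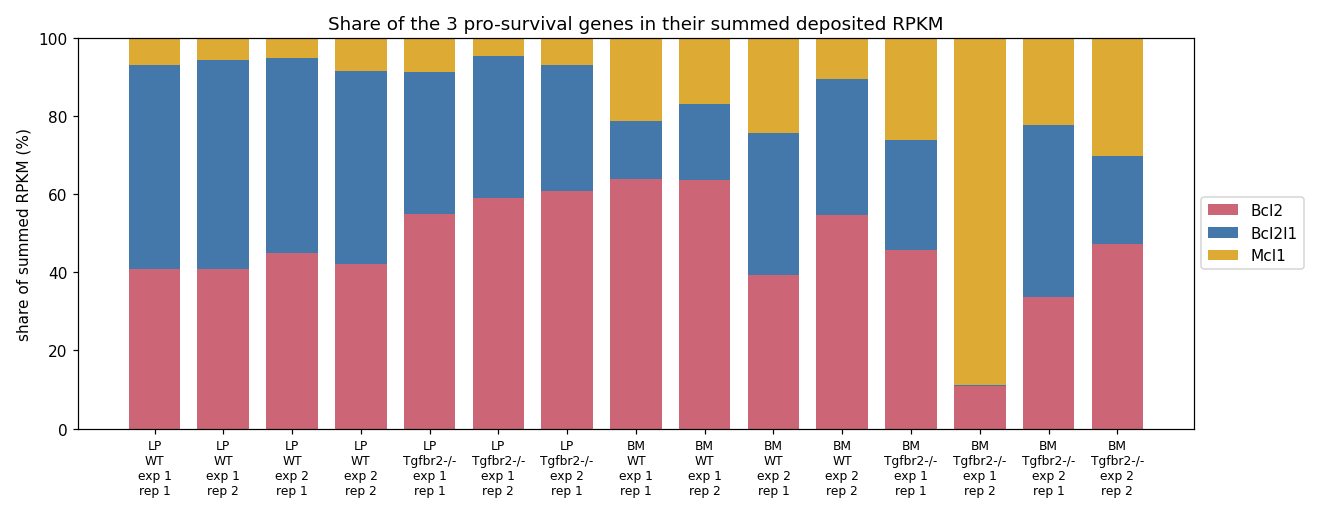
Share of *Bcl2*, *Bcl2l1* and *Mcl1* in the summed deposited RPKM of the 3 pro-survival genes, in percent, for each of the 15 libraries. *Mcl1* takes 4.73% to 8.71% in LP ILC2s and 10.5% to 88.8% in BM ILC2p, and the *Bcl2* shares rest on a length that differs between libraries.

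Next, LP ILC2s were compared with BM ILC2p over all 15 libraries. Each experiment held 1 cell type, and the BM cells came from chimeras, so cell type, experiment and mouse model cannot be told apart. The fit treated libraries of 1 experiment as independent, which they are not. Its p-values for cell type, here and for the genes around the family below, may therefore be too small. *Mcl1* was called and was lower in LP ILC2s. It was 1 of 10 family genes called, while 2010 of 12806 genes were called (15.7%; 11.3% higher and 4.44% lower in LP ILC2s). Of the 10 genes 6 had a positive log2 fold change, with a median of 0.49 beside 0.03 over all genes tested.

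*Mcl1* ran from 39.6 to 85.9 CPM in the 7 LP libraries (median 58.0) and from 63.7 to 354 CPM in the 8 BM libraries. A single BM library, WT replicate 1 of experiment 1, fell within the LP range. The log2 fold change was -1.58 (SE 0.37, adjusted p = 0.0130, edgeR's quasi-likelihood test), so LP ILC2s held 0.334 of the BM level. Over 24 alternatives it lay between -1.96 and -1.31 with adjusted p between 0.000116 and 0.297. Of the 24, 15 left out a single library each and so shared most libraries with the main fit. *Mcl1* was called in 23 of the 24. The exception was the WT libraries alone (-1.31, SE 0.44, adjusted p = 0.297, same test). The Tgfbr2-/- libraries alone gave -1.96 (adjusted p = 0.0655, same test), and leaving out the 4 BM libraries with missing genes gave -1.36 (SE 0.32, adjusted p = 0.0231, same test). All 9 neutrophil markers were called lower in LP ILC2s in the same comparison. In WT libraries these markers summed to 792 to 1560.1 CPM in BM and to at most 3.88 CPM in LP. *Mcl1* stood at 63.7 to 231 CPM in BM and 44.5 to 63.7 CPM in LP in the same libraries. The part of the markers' cells in the difference was not tested.

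**Figure D4:**
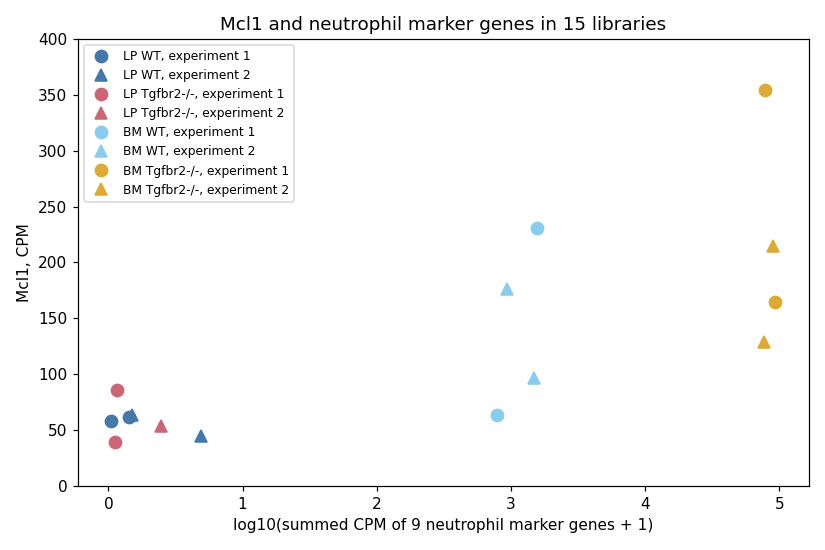
*Mcl1* in CPM against log10 of the summed CPM of 9 neutrophil markers plus 1, 1 point per library (circles, experiment 1; triangles, experiment 2). LP libraries sit at the left with at most 85.9 CPM, WT BM libraries in the middle with 63.7 to 231 CPM, and Tgfbr2-/- BM libraries at the right with 129 to 354 CPM.

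The other pro-survival genes did not pass the test. The log2 fold change was 0.63 for *Bcl2* (SE 0.33, adjusted p = 0.288, edgeR's quasi-likelihood test) and 1.01 for *Bcl2l1* (SE 0.62, adjusted p = 0.396, same test). *Bax* was between 155 and 199 CPM in all 7 LP libraries and between 1.09 and 148 CPM in all 8 BM libraries, with no overlap (0.66, SE 0.55, adjusted p = 0.573, same test). Of all genes tested, 2.95% were higher in every LP library in this way. *Bak1* was at 3.70 to 24.0 CPM in LP and 4.30 to 44.6 CPM in BM libraries (-0.59, SE 0.73, adjusted p = 0.737, same test).

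*Bid* had a log2 fold change of -3.30 (SE 1.25, unadjusted p = 0.0181, adjusted p = 0.111, edgeR's quasi-likelihood test) and was called in 6 of 23 alternatives. The LP libraries ran from 0.187 to 25.8 CPM, and 6 of the 8 BM libraries were above that, at 56.7 to 278 CPM. *Bcl2l11* had a value of the other sign (2.54, SE 1.12, adjusted p = 0.185, same test; called in 5 of 23 alternatives), with 46.9 to 103 CPM in LP libraries and 0 to 65.5 CPM in BM libraries. Without the 4 BM libraries both passed, *Bid* at -3.86 (adjusted p = 0.0469, same test) and *Bcl2l11* at 1.33 (adjusted p = 0.0771, same test). In WT libraries alone neither passed, with -3.19 for *Bid* (adjusted p = 0.504, same test) and 0.98 for *Bcl2l11* (adjusted p = 0.944, same test). *Pmaip1* (2.04, SE 1.52, adjusted p = 0.508), *Bad* (0.35, SE 0.75, adjusted p = 0.867) and *Bbc3* (-0.28, SE 1.19, adjusted p = 0.942, same test) did not pass either. *Pmaip1* was called in 3 of 23 alternatives, and the value was 5.46 without BM Tgfbr2-/- replicate 1 of experiment 2 (adjusted p = 0.0313, same test), the library at 42.8 CPM, and 0.80 without the 4 BM libraries (adjusted p = 0.675, same test).

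**Figure D5:**
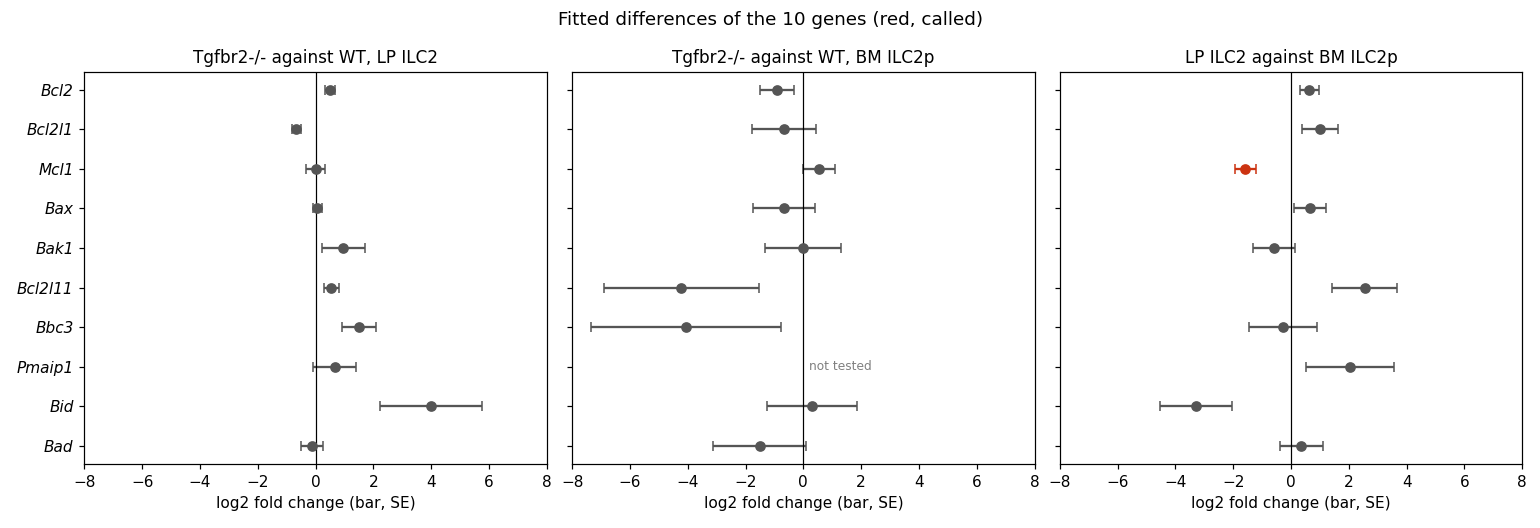
Log2 fold change of each gene with its SE for Tgfbr2-/- against WT in LP ILC2s (left) and in BM ILC2p (middle), and for LP ILC2s against BM ILC2p (right). *Mcl1* in the right panel is the only one called (red, -1.58). For each gene tested in BM ILC2p except *Bid*, the bar there is the widest.

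Whether the effect of *Tgfbr2* loss differed between LP ILC2s and BM ILC2p was tested as an interaction. None of the 10 genes was called, against 0.992% of the genes tested. The fitted difference, LP minus BM, was positive for 7 of the 10, with a median of 1.18 beside 0.31 over all genes. It was 1.39 for *Bcl2* (SE 0.70, adjusted p = 0.468, edgeR's quasi-likelihood test), 4.70 for *Bcl2l11* (SE 2.42, adjusted p = 0.480, same test) and 5.53 for *Bbc3* (SE 3.18, adjusted p = 0.558, same test). *Bbc3* was called in 3 of 21 alternatives. Without the 4 BM libraries with missing genes, 1 Tgfbr2-/- BM library remains. The differences were then 1.17 for *Bcl2*, 1.55 for *Bcl2l11* and 8.42 for *Bbc3*. Leaving out each library gave 0.71 to 1.69 for *Bcl2*, 1.52 to 7.23 for *Bcl2l11* and 3.70 to 9.18 for *Bbc3*. The lowest values came without BM WT replicate 2 of experiment 1 (*Bcl2*, *Bcl2l11*) or BM Tgfbr2-/- replicate 2 of experiment 2 (*Bbc3*), and the highest without BM Tgfbr2-/- replicate 1 of experiment 1 (*Bcl2*, *Bbc3*) or of experiment 2 (*Bcl2l11*).

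Experiment 2 was also set against experiment 1. In LP ILC2s 0.977% of the genes were called and none of the 10 family genes, although *Bbc3* (-1.77, SE 0.61, adjusted p = 0.265, edgeR's quasi-likelihood test) and *Bid* (5.03, SE 1.77, adjusted p = 0.271, same test) had wide log2 fold changes. Epithelial markers, led by *Krt8* in experiment 2, summed to 6.50 to 39.5 CPM in experiment 1 and to 74.7, 318 and 811 CPM in experiment 2. Other marker lists moved too. The median log2 fold change was 5.19 for macrophage and monocyte markers (5 of 5 positive). It was -2.36 for markers of group 3 innate lymphoid cells (3 of 4 negative) and -1.95 for T cell markers (3 of 4 negative). For NK cell and ILC1 markers it was -1.07 (4 of 5 negative). None of these other markers was called, while 3 epithelial markers were called higher. The part of all these markers' cells was not tested. In BM ILC2p no gene was called (0% of 9242; 288 had an unadjusted p under 0.05; DESeq2 called 397).

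Beyond the 10 genes, 66 genes that act around the family were listed in 8 groups, and 61 could be tested in LP ILC2s (53 in BM ILC2p). None was called for genotype in either cell type or in the interaction. Their median log2 fold change for genotype was 0.17 in LP ILC2s and -0.36 in BM ILC2p, beside -0.01 and -0.10 over all genes. By the rule for names, the highest member of each group follows for genotype, each with an adjusted p of 0.165 or more in edgeR's quasi-likelihood test for both cell types. The log2 fold changes in LP ILC2s and BM ILC2p were 1.24 and 1.68 for *Bcl2a1d* (a pro-survival relative), 0.35 and -0.36 for *Bnip3l* (removal of mitochondria) and 0.08 and -0.89 for *Htra2* (a mitochondrial protease). They were -0.26 and 0.72 for *Birc3* (an inhibitor of apoptosis), 0.15 and 0.37 for *Casp8* (the death receptor caspase) and 0.36 and -0.52 for *Cdkn1a* (p21, a p53 target). For *Huwe1*, a ubiquitin ligase of MCL1, they were 0.13 and 0.56, and for *Il2rg*, the common cytokine receptor chain, 0.12 and -1.02. The directions of 5 of the 8 were opposite between the cell types, and no such difference was called.

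Between LP ILC2s and BM ILC2p, 8 of the 61 genes were called higher and 1 lower in LP ILC2s, beside the 11.3% and 4.44% of all genes given above. At least 3 of the 8 (*Fasl*, *Bcl2l2* and *Bcl2l15*) had next to no count in BM libraries and entered the test through the LP libraries alone, so they had to differ and the count of 8 is no support for a direction of the list. *Il2rb*, the β chain of the IL-2 receptor, was at 237 to 1115 CPM in LP and 0.397 to 269 CPM in BM libraries and rose by 4.23 on the log2 scale (SE 0.77, adjusted p = 0.00319, edgeR's quasi-likelihood test). *Pim1*, a kinase induced by STAT5, was at 795 to 2476 CPM against 224 to 828 CPM (1.43, SE 0.31, adjusted p = 0.00996, same test). *Cdkn1a* was at 382 to 1899 CPM against 1.09 to 268 CPM (3.43, SE 0.72, adjusted p = 0.00747, same test). The LP and BM values of *Cdkn1a* did not overlap, while those of *Il2rb* and *Pim1* overlapped slightly. All 3 genes were also called lower in experiment 2 than in experiment 1 of LP ILC2s, as given below. For *Pim1* that shift was about as large as the difference between LP and BM.

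*Endog*, a mitochondrial nuclease, was also higher in LP ILC2s, by 3.43 on the log2 scale (SE 1.22, adjusted p = 0.0886, edgeR's quasi-likelihood test). It was under 1 CPM in 5 of the 8 BM libraries. In the other 3 it was at 2.38 CPM or more, which overlapped the LP range of 0.962 to 18.5 CPM. *Endog* may thus have entered the test mainly through the LP libraries, so its p-value is no support for a direction. Of the remaining genes, *Fasl*, the ligand of the death receptor Fas, had 912 counts over the LP libraries and 2 over the BM libraries (ratio of CPM 524, counting interval 145 to 4331). *Bcl2l2*, which encodes pro-survival BCL-W, had 374 and 2 counts (ratio 215, 59.0 to 1780.0). *Bcl2l15* had no count in BM and was at least 137-fold higher in LP ILC2s against a floor of 3 counts over the group. These 3 values are descriptions with no test. The genes were low in LP ILC2s as well, at 18.2 CPM or less in each library. NK cell and ILC1 markers summed to 185 to 863 CPM in LP and 0.446 to 178 CPM in BM libraries, and epithelial markers to 6.50 to 811 and 0.179 to 61.6 CPM. Their part in these differences was not tested.

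The gene that was lower in LP ILC2s was *Birc5* (survivin, expressed in dividing cells), at 3.35 to 21.5 CPM in LP and 2.73 to 286 CPM in BM libraries (-3.10, SE 0.64, adjusted p = 0.00683, edgeR's quasi-likelihood test). In 7 of 8 BM libraries it was above the LP range, and the exception was WT replicate 2 of experiment 1. The highest values were 284 and 286 CPM in the Tgfbr2-/- libraries of experiment 1.

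Of the 61 genes, 3 also differed between the LP experiments, beside 0.693% of all genes called lower in experiment 2. They were lower in experiment 2: *Pim1* by -1.47 (SE 0.16, adjusted p = 0.0434, edgeR's quasi-likelihood test), *Cdkn1a* by -1.56 (SE 0.25, adjusted p = 0.0806, same test) and *Il2rb* by -1.20 (SE 0.23, adjusted p = 0.0815, same test). *Pim1* stood at 2465, 2255, 1815 and 2476 CPM in experiment 1 and at 795, 831 and 867 CPM in experiment 2. Leaving out any of the 7 libraries left 0 to 10 genes called for experiment in all, against 117 with all of them.

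*Bmf*, a BH3-only gene, and the *Bcl2a1* copies were followed whatever their values. *Bmf* ranged from 0.289 to 16.6 CPM in LP libraries and was at 50.7 CPM in 1 WT BM library, at 7.47 CPM in another and under 1 CPM in the other 6. Its interaction was 7.04 (SE 2.64, adjusted p = 0.303, edgeR's quasi-likelihood test). *Bcl2a1a*, *Bcl2a1b* and *Bcl2a1d* are near-identical, so reads may be shared among them and each level is uncertain. Their genotype log2 fold changes in LP ILC2s were 1.29, 1.32 and 1.24 (adjusted p = 0.898 for each, same test). The highest values of all 3 in LP ILC2s, 29.2, 32.5 and 52.1 CPM, were in Tgfbr2-/- replicate 2 of experiment 1.

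Last, the genes whose levels followed *Bcl2*, *Mcl1* and *Bcl2l11* most closely were found by Spearman rho over the 15 libraries, among 8924 genes with a mean of at least 10 CPM. For *Bcl2* they were *Kcnk1* (0.900), *Pwwp2a* (0.889) and *Panx1* (0.871). For *Mcl1* they were *Med8* (0.929), *Add2* (0.904) and *Gm5424* (0.900), and for *Bcl2l11* *Ilvbl* (0.939), *Bambi* (0.931) and *Urgcp* (0.911). The libraries share cell type, experiment and the gaps described above, so these values describe likeness of pattern alone.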

How the data were processed

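Mapping by the authors used TopHat on the mm9 genome and retained multiply mapped reads. RefSeq genes were then counted over full transcripts with rpkmforgenes. The submitters' processing notes name Bowtie2. Each deposited table holds raw counts, which are not normalized, and RPKM, made by the authors from those counts, the gene length and the normalization reads of the library. The strand setting is not given in the sources used here. The tables have 24690 entries for 24089 symbols, and 205 entries join several genes.

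Groups came from the labels. Counts were fitted with edgeR 4.0.16 in R 4.3.3 (TMM, filterByExpr, quasi-likelihood test, Benjamini-Hochberg adjustment over all genes tested), with experiment as a covariate for genotype and none for cell type. Genes were called at adjusted p under 0.1 and fold change over 1.5, and SE is the log2 fold change divided by the square root of F. Scripts were tested on simulated data. Alternatives were RLE scaling, DESeq2 1.42.0, limma 3.58.1 on log2(RPKM + 1), other filters (none, or 10 counts in every library), no covariate, a replicate block, single experiments or genotypes, experiment as a random block, and leaving out each library. The random block was fitted with limma-voom, a weighted linear fit of log2 CPM, with a correlation of 0.0574 within an experiment. Its values therefore differ in method as well as in the block, and the 2 cannot be told apart. Leaving out 4 BM libraries together was chosen after seeing the data.

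The text names the 10 genes, *Tgfbr2*, the *Bcl2a1* copies, *Bmf*, and of each pathway list the called genes (at most 5) or the one with the highest mean RPKM. A called gene of these lists is counted but not reported here by name. The members and lists were chosen with earlier results of these data known. Total counts of 10957021 to 35961215 a library set the precision, and intervals and floors cover counting error only.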

Additional observations from a re-analysis of the deposited data

Results flagged for a closer look

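In 5 of 33 groups of 4 libraries, the highest library stood far from the other 3 by Dixon's gap test. The groups are those of the 10 genes and *Tgfbr2*, and their share was 15.2%, beside 22.7% of 36875 such groups over all genes tested between the cell types (14.8% in WT LP ILC2s, 22.7% in WT and 31.1% in Tgfbr2-/- BM ILC2p). For normally distributed values chance flags about 1 group in 20. *Bcl2l11* was at 20.9 CPM in BM ILC2p Tgfbr2-/- replicate 1 of experiment 2, against 0.199 to 0.387 CPM in the other Tgfbr2-/- libraries. In the same library *Pmaip1* was at 42.8 CPM, against 0 to 0.232 CPM. *Bbc3* was at 39.2 CPM in BM ILC2p Tgfbr2-/- replicate 1 of experiment 1, against 0.104 to 0.426 CPM. In WT LP ILC2s, *Bbc3* was at 18.5 CPM in replicate 2 of experiment 1, against 4.54 to 6.46 CPM, and *Bad* was at 63.9 CPM in replicate 1 of experiment 1, against 30.3 to 33.3 CPM.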

How the results depend on the processing

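Of 994 values of the 10 genes under the alternatives, 904 kept direction and call, 68 reversed, 21 gained and 1 lost a call, and the cause was not tested. Of the 994, 584 came from leaving out a single library and so shared most libraries with the main fit. Only *Mcl1* between cell types was called there, so a kept call mostly means a gene that stayed uncalled. The share that kept both is therefore no measure of robustness. Counts of 0 in BM ILC2p allow up to 0.311 CPM.

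For genotype in LP ILC2s (0 genes called), DESeq2 called 338 genes, 2 of them family genes, and no filter gave 3. For genotype in BM ILC2p (321 genes), DESeq2 called 1229, at least 10 counts 199, experiment 1 alone 38, experiment 2 alone 77 and the fit without 4 libraries 25. Leaving out each library gave 179 to 319, with 179 and 185 without the WT libraries of experiment 2, 185 without WT replicate 2 and 212 without Tgfbr2-/- replicate 1 of experiment 1. No alternative called a family gene there. For LP ILC2s against BM ILC2p (2010 genes), at least 10 counts gave 479 and WT libraries alone 268. Family genes called (1) were 2 with RLE or no filter and 0 with WT libraries alone. They were 3 with DESeq2, limma, limma-voom with experiment as a random block, or without 4 libraries. Leaving out each library gave 1 to 3, with 3 without BM Tgfbr2-/- replicate 1 of experiment 2 and 2 without replicate 2 of experiment 2 or replicate 1 of experiment 1. For the interaction (127 genes), DESeq2 called 1520, limma 382, no filter 259 and the fit without 4 libraries 1136, against 14 to 407 leaving out each library (14 without LP Tgfbr2-/- of experiment 2, 407 without BM Tgfbr2-/- replicate 1 of experiment 2). Family genes called there were 1 with DESeq2 or without 4 libraries, and 0 to 1 leaving out each library (1 without BM Tgfbr2-/- replicate 1 of experiment 1). For experiment in LP ILC2s (117 genes), DESeq2 called 1347 with 2 family genes, no filter 320, and leaving out each library 0 to 10. For experiment in BM ILC2p (0 genes), DESeq2 called 397 and no filter 5.

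The replicate numbers did not pair the libraries (correlations of deviations -0.02, -0.01 and -0.04). With a replicate block the genotype genes were 0 in LP ILC2s and 175 in BM ILC2p, with 0 family genes in each, and *Mcl1* in LP ILC2s came to -0.06, and in BM ILC2p *Bak1* to 0.11 and *Bid* to -2.68.

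The following log2 fold changes reversed. For genotype in LP ILC2s, *Bad* was 0.01 with limma. Experiment 2 alone gave *Bad* 0.04, *Bak1* -0.14, *Pmaip1* -0.06 and *Bid* -0.57. In BM ILC2p, *Bak1* was 0.08 with RLE or DESeq2 and 0.00 in experiment 1 alone, *Bid* -2.10 with limma and *Bax* 0.01 in experiment 2 alone. Without 4 libraries, *Mcl1* was -0.16 and *Bad* 0.57. Between cell types, *Bbc3* was 0.68 with limma, 1.66 with Tgfbr2-/- alone, 1.76 with the random block and 1.75 without 4 libraries. WT libraries alone gave *Bcl2* -0.06 and *Bad* -0.26, and without 4 libraries *Bad* was -0.28 and *Bak1* 0.02. *Mcl1* lost its call in WT libraries alone, at -1.31. In the interaction, limma gave *Bcl2l1* 0.90 and *Pmaip1* 0.36, no covariate gave *Bid* -0.18, and without 4 libraries *Mcl1* was 0.05 and *Bad* -0.82. For experiment, limma gave *Bcl2* 0.01 and *Mcl1* 0.00 in LP ILC2s and *Bbc3* 0.10 in BM ILC2p.

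Leaving out each library also turned some signs. For genotype in LP ILC2s, *Mcl1* ran from -0.32 to 0.24 and *Bad* from -0.33 to 0.23, and in BM ILC2p *Bak1* from -0.54 to 0.85 and *Bid* from -1.40 to 0.76. Between cell types *Bbc3* ran from -0.62 to 2.38. In the interaction, *Bcl2l1* ran from -0.64 to 1.27 and *Pmaip1* from -2.58 to 3.99. For experiment in LP ILC2s the ranges were -0.21 to 0.02 (*Bcl2*), -0.37 to 0.00 (*Mcl1*), -0.27 to 0.87 (*Bak1*) and -0.47 to 0.80 (*Pmaip1*). In BM ILC2p they were -0.09 to 0.91 (*Bcl2*), -0.10 to 1.27 (*Bax*), -1.03 to 0.20 (*Bak1*), -4.53 to 1.00 (*Bbc3*), -1.17 to 1.93 (*Bid*) and -0.65 to 0.94 (*Bad*).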
